A study of Mus musculus with 4 samples.

Results

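Plasmacytoid dendritic cells (pDC) were chosen by their transcripts as cells with at least 3 UMIs of Siglech, which encodes the pDC surface lectin Siglec-H, and with no UMI of the T-cell receptor genes Cd3d, Cd3e and Cd3g or of the B-cell gene Cd79a. A UMI (unique molecular identifier) counts 1 captured transcript. Of 36286 kept cells, which had 600 to 6000 genes and at most 5% mitochondrial UMIs, 459 were pDC, and the deposited matrices held 39121 cells in all. Because Siglech, Cd3d, Cd3e, Cd3g and Cd79a chose the cells, their levels are given as a description only.

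The cells came from a study of miR-146a in liver cancer, in which CD45+ immune cells were purified from mouse livers by FACS and sequenced with the 10x Genomics 5′ chemistry. All mice were on the C57BL/6 background and female. Young WT mice were untreated and about 8 weeks old. In the other 3 groups, diethylnitrosamine (DEN, a liver carcinogen) was given at 25 mg/kg on day 14, and from weaning on day 21 the mice ate a choline-deficient high-fat diet (CDHFD) until about 36 weeks of age. These DEN-CDHFD mice were WT, lacked miR-146a (miR-146a-/-), or lacked both miR-146a and the chemokine gene Ccl5 (miR-146a-/- Ccl5-/-, called DKO). Each group was 1 library, and the number of mice behind a library is not given in the sources used here. Age, DEN and diet cannot be told apart between young WT and DEN-CDHFD WT mice.

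pDC develop in the bone marrow under the transcription factor Tcf4 (E2-2) and circulate to tissues such as the liver. They sense viral RNA and DNA through the endosomal receptors Tlr7 and Tlr9 and are the cells best known for rapid type I interferon. miR-146a is a microRNA induced by NF-kB that lowers the signaling adaptors Irak1 and Traf6, which act downstream of these receptors. The matrices hold no gene entry for miR-146a, so its loss was not measured here.

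The mature miR-146a-5p and the 3′ UTR stretches that pair with it are shown because miR-146a is what 2 of the libraries lack. The mature strand lies at chr11:43374435-43374456 on the minus strand (RefSeq, GRCm38.p6), and capitals mark the seed, bases 2 to 8. In the longest annotated 3′ UTR (GENCODE M21, GRCm38), capitals mark the letters AGTTCTC, which pair with that seed. Irak1 held 2 such matches and Traf6 held 4, of which 2 are shown for Irak1 and 1 for Traf6.
miR-146a-5p: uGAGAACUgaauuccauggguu
Irak1, chrX:74015386-74015415, minus strand: agactcagaggtcaaAGTTCTCatgcttgg
Irak1, chrX:74015370-74015399, minus strand: gttctcatgcttggaAGTTCTCatagtgtg
Traf6, chr2:101697944-101697973, plus strand: accgctctggtgttgAGTTCTCatttagtt

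The young WT, DEN-CDHFD WT, miR-146a-/- and DKO libraries held 90756272, 103165826, 88706063 and 103147246 UMIs in 10985, 9120, 8393 and 10623 cells. Of these, 10283, 8329, 7824 and 9850 cells were kept. The pDC numbered 119, 78, 139 and 123, with 1421184, 1033909, 1962147 and 1681615 UMIs in all. Their median depth was 11842, 12713.5, 13942 and 13551 UMIs per cell, with a median of 3697, 3796.5, 3984 and 3967 genes. pDC were thus deeper than the kept cells as a whole, whose medians were 6782, 8210, 7910 and 7558 UMIs. The libraries shared cell barcodes with each other, but no pDC barcode occurred in more than 1 library.

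Levels are CPM, the summed UMIs of a gene divided by all UMIs of the pDC of a library, times 1000000, with exact 95% Poisson intervals, and shares have exact 95% binomial intervals. All intervals cover counting error only. With 1 library per group there was no replicate check and no test, so a gene was called higher or lower between libraries when its CPM differed at least 2-fold (prior of 0.5 counts), provided that the gene reached 50 CPM and 20 UMIs in either library of the pair.

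Siglech ranged from 3 to 73 UMIs per pDC, with a median of 31. It stood at 2392 CPM in young WT, 2289 in DEN-CDHFD WT, 2441 in miR-146a-/- and 2302 in DKO pDC. The other genes that define pDC identity were carried with it. Bst2, the tetherin restriction factor, was detected in 454 of the 459 cells, and Tcf4 in 455. The cytochrome oxidase subunit Cox6a2 was detected in 437 cells, the gut-homing receptor Ccr9 in 448 and Ly6d in 431.

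At the threshold, 7 cells had exactly 3 Siglech UMIs, of which 4 held Bst2, 4 held Tcf4, 4 held Ccr9, none held Cox6a2 and 3 held the cDC1 gene Xcr1. Just outside it, 18 cells had exactly 2 Siglech UMIs, of which 17 held Bst2, 12 held Tcf4, none held Cox6a2 and 13 held the myeloid gene Lyz2. Among the 435 cells with 10 or more Siglech UMIs, all held Bst2 and Tcf4, 428 held Cox6a2 and 1 held Xcr1. Clec9a, also known from cDC1, did not separate these cells, as it was held by 6 of the 7 and by 332 of the 435.

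Against all other kept cells, 28 of the 29 genes of a pDC identity list other than Siglech were at least 2-fold higher in pDC and 20 at least 10-fold, with a median of 15.9-fold. Cadm1, an adhesion molecule shared with cDC1, had the lowest at 1.80-fold. The list was chosen with earlier results of these data known. The 20 leading genes of pDC over other cells were Dntt, Sh3bgr, D13Ertd608e, Grm8, Gm14207, Siglech, Gm21762, Cox6a2, Pgam2, Ptprf, Atp2a1, Klk1, Paqr5, Serpinh1, Pdzd4, Fads3, Fyb2, Foxr1, Cdh5 and Cd300c. Dntt, the terminal transferase of lymphoid precursors, stood at 191 CPM in pDC and 0.869 in the other cells, 219-fold. The muscle-type genes Atp2a1 (a calcium pump of the sarcoplasmic reticulum) and Pgam2 (a phosphoglycerate mutase) stood at 221 and 105 CPM in pDC against 1.35 and 0.597. Cdh5, best known as the cadherin of endothelial junctions, stood at 145 CPM in pDC against 1.20 in the other cells.

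pDC were set beside 4 other gated cell types with no Cd3 UMI: cDC1 (Xcr1 and Clec9a), cDC2 (Cd209a), B cells (Cd79a) and NK cells (Ncr1), all without Siglech. Bst2 stood at 4045 CPM in pDC (3994 to 4095), 196 in cDC1, 239 in cDC2, 73.7 in B and 101 in NK cells. Tcf4 stood at 1681 CPM in pDC against at most 170 in the others, where B cells were highest. Cox6a2 stood at 1971 CPM in pDC and at most 5.65 in the others, and Klk1, a tissue kallikrein, at 1091 and at most 0.276. Ly6d was shared with B cells, at 2488 CPM in pDC and 1663 in B cells but below 1 CPM in the other 3 types.

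The cathepsin Ctsl, which processes endosomal Toll-like receptors, stood at 1673 CPM in pDC and at most 26.6 elsewhere. Tlr7 stood at 150 CPM in pDC and at most 17.3 in the others, and Tlr9 at 70.3 and at most 21.0. Unc93b1, the chaperone that carries these receptors to endosomes, was broader, at 1111 CPM in pDC and 679 in cDC1. Irf8, needed by both pDC and cDC1, stood at 2862 CPM in pDC, 1603 in cDC1 and 55.9 in cDC2. Id2, the inhibitor of E proteins that opposes Tcf4, stood at 46.1 CPM in pDC against 1405 in cDC1 and 832 in NK cells. The invariant chain Cd74 of MHC class II loading stood at 12708 CPM in pDC, below the 31569 of cDC1, the 37475 of cDC2 and the 23711 of B cells. In the plot of gene levels by cell type, only Id2 and Cd74 of the 13 genes were highest outside pDC.

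**Figure D1:**
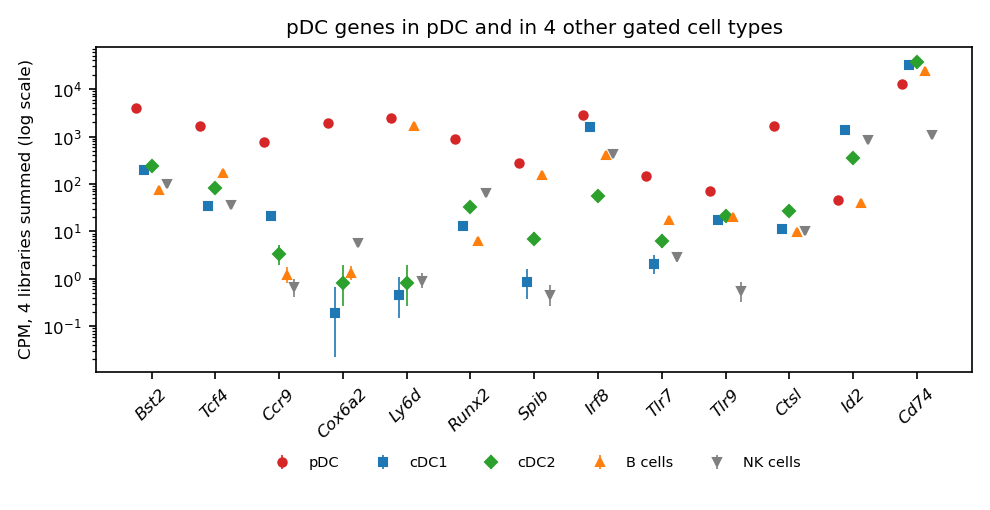
CPM (log scale) of 13 genes in pDC and in 4 other gated cell types, each summed over the 4 libraries, with exact 95% Poisson intervals. Bst2 stood at 4045 CPM in pDC and at most 239 elsewhere, whereas Id2 and Cd74 were higher in cDC1 (1405 and 31569 CPM) than in pDC (46.1 and 12708).

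Cd4 was detected in 58.0%, 56.4%, 57.6% and 69.1% of pDC in young WT, DEN-CDHFD WT, miR-146a-/- and DKO, and after thinning to 2000 UMIs per cell in 19.3%, 21.8%, 19.4% and 27.6%. In B cells Cd4 was detected in 0.713% of cells and 0.205% after thinning. Across cells, Cd8a and Cd4 showed Spearman correlations between -0.0737 and 0.0948 in the 4 libraries. Ly6d spread widely over the cells, with quartiles of 848 and 3272 CPM for Ly6d in miR-146a-/- pDC.

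The promoter stretch of Siglech, which spans its annotated start at chr7:55768178, is shown because Tcf4, the factor that specifies pDC, binds E-boxes (CANNTG). Of the 32851 mouse promoters of 300 bases (RefSeq, GRCm38.p6), 72.3% held a CANNTG match, which reads the same on both strands. Of 22 pDC identity genes with such a promoter, 20 held a match in any promoter of the gene (90.9%). The list was counted by gene and the whole by promoter, so these shares are unlike measures. The Siglech promoter, on the plus strand at chr7:55767934-55768233, held 3 matches, marked by capitals. A match describes the letters only.
Siglech: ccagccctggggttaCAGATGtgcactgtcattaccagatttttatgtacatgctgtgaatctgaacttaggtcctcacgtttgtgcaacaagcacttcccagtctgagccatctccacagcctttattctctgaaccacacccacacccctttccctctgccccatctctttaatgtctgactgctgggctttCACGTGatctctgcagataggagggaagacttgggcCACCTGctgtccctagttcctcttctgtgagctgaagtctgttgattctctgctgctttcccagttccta

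Transcripts listed as markers of other cell types were sparse in pDC for some types and not for others. The 8 T-cell genes that the choice of cells did not use summed to 87.3, 66.7, 71.4 and 83.3 CPM in young WT, DEN-CDHFD WT, miR-146a-/- and DKO pDC, against 1241, 1322, 1267 and 905 in the other kept cells. Their most abundant gene was Cd28 in the WT libraries and Lat in the other 2, and Cd3d, Cd3e and Cd3g were at 0 by the choice of cells. The 11 NK and ILC1 genes summed to 527, 339, 426 and 467 CPM, against 5112, 5466, 5151 and 4493 in the other cells, led by Klrd1, which pDC themselves carried in 83.3% to 95.7% of cells. The 10 B-cell genes other than Cd79a summed to 497, 607, 536 and 541 CPM, against 1280, 828, 715 and 976, led by Ighm, which was detected in 95.8% to 99.3% of pDC, while Cd79a was at 0 by choice. The 10 cDC1 genes were not lower in pDC, at 528, 556, 521 and 447 CPM against 495, 319, 416 and 436 in the other cells, and were led by Clec9a. The 10 cDC2 genes summed to 1809, 1623, 1567 and 1541 CPM against 1150, 1291, 1484 and 1544, and the 10 endothelial and stellate genes, led by Pecam1, to 175, 151, 158 and 155 against 63.1, 50.3, 74.4 and 94.8. Their part in other results was not tested.

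Myeloid transcripts were uneven. The 12 Kupffer and macrophage genes summed to 121, 134, 54.5 and 112 CPM, with Clec4f, Vsig4 and Marco at 0 in every library, and were led by Apoe in 3 libraries and by C1qb in DKO. The 12 monocyte genes summed to 3273, 3614, 3008 and 3064 CPM, against 1877, 3485, 5200 and 5544 in the other cells, led by Ly6c2, a gene that pDC express. Lyz2, the abundant lysozyme of monocytes and macrophages, stood at 242, 504, 158 and 63.0 CPM, and the cell with the most Lyz2 held 42%, 41%, 68% and 34% of its UMIs. DEN-CDHFD WT pDC had the highest Lyz2 level, and the order of miR-146a-/- and DKO turned with the choice of cells. The log2 ratio of DKO over miR-146a-/- was -1.33, but 1.12 with Siglech of at least 2 UMIs and 0.74 with at most 1 UMI of each set of other cells' genes.

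The share of pDC was compared to see how the livers of the 4 groups differed in these cells. pDC made up 1.16% of kept cells in young WT (0.960% to 1.38%), 0.936% in DEN-CDHFD WT (0.741% to 1.17%), 1.78% in miR-146a-/- (1.50% to 2.09%) and 1.25% in DKO mice (1.04% to 1.49%). The miR-146a-/- share was the highest, and its interval did not overlap the other 3. It lay 0.840 percentage points above DEN-CDHFD WT (Newcombe 95% interval 0.485 to 1.21), and DKO lay at -0.528 points from miR-146a-/- (-0.903 to -0.167). DEN-CDHFD WT lay at -0.221 points from young WT (-0.513 to 0.0776), an interval that included 0. It did not include 0 with no exclusion on Cd3 and Cd79a (-0.376, -0.723 to -0.0238), with 1 UMI of Cd3 and of Cd79a allowed (-0.373, -0.691 to -0.0503), an alternative chosen after the data were seen, with cells thinned to 2000 UMIs and Siglech lowered to at least 1 UMI, 2 changes made together (-0.406, -0.741 to -0.0660), or with at most 1 UMI of each set of other cells' genes (-0.301, -0.575 to -0.0227).

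The exclusion on Cd3 and Cd79a removed a different part of the Siglech cells in each library. Before it, 172, 108, 155 and 151 kept cells had at least 3 Siglech UMIs, and it took away 30.8% in young WT, 27.8% in DEN-CDHFD WT, 10.3% in miR-146a-/- and 18.5% in DKO. The cells taken away were deeper, with median UMIs of 13621, 17025.5, 18356 and 15767. Without the exclusion the shares were 1.67%, 1.30%, 1.98% and 1.53%, and the miR-146a-/- share lay 0.684 points above DEN-CDHFD WT (0.294 to 1.08). The miR-146a-/- interval (1.68% to 2.31%) then overlapped those of young WT (1.43% to 1.94%) and DKO (1.30% to 1.80%). The part of the exclusion in the share differences beyond these values was not tested.

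**Figure D2:**
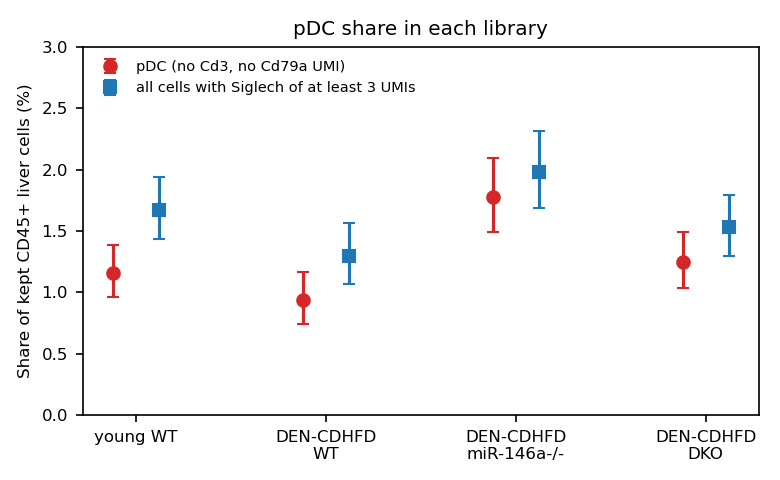
Share of kept CD45+ liver cells (%) in each library that were pDC (circles) or had at least 3 Siglech UMIs before the exclusion on Cd3 and Cd79a (squares), with exact 95% binomial intervals. The miR-146a-/- library had the highest share by both counts (1.78% and 1.98%), and DEN-CDHFD WT the lowest (0.936% and 1.30%).

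Measured as a share of the kept cells with no Cd3 UMI, pDC made up 3.49% in young WT, 2.66% in DEN-CDHFD WT, 4.79% in miR-146a-/- and 2.55% in DKO. The DKO share was then the lowest of the 4.

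pDC identity genes differed little between the libraries. Comparing miR-146a-/- with DEN-CDHFD WT pDC, of the 30 identity genes none was called higher and 1, Klk1, was called lower, with 22 genes above 0 and 8 below 0 on the log2 scale. Siglech is 1 of the 30 and, because it chose the cells, its part in these counts is a description only. The list's median log2 ratio was 0.09, beside 0.02 for all 3721 genes tested. Across all genes tested, 16 (0.43%) were called higher and 59 (1.59%) lower. Tcf4 stood at 1523, 1488, 1927 and 1648 CPM in young WT, DEN-CDHFD WT, miR-146a-/- and DKO pDC, and was highest in miR-146a-/-. Cox6a2 stood at 1808, 1432, 2341 and 2007 CPM, lowest in DEN-CDHFD WT.

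Of the transcription factor list, 2 of 18 tested genes were called lower in miR-146a-/- than in DEN-CDHFD WT pDC, namely Id2 and Klf4 (11.1%, beside 1.59% of all genes tested), and none higher. Id2 stood at 88.7, 82.2, 17.8 and 20.8 CPM, but in DEN-CDHFD WT the top cell held 61% of its UMIs. Klf4, a factor of myeloid cells, stood at 42.9, 63.8, 18.3 and 30.9 CPM. Spib, a factor of pDC and B cells, stood at 299, 282, 272 and 269 CPM. Runx2, which guides pDC out of the bone marrow, stood at 957, 750, 1018 and 824 CPM and was, like Tcf4, highest in miR-146a-/-, without reaching 2-fold.

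Nucleic acid sensing, the specialty of pDC, was examined in 29 genes, of which 20 could be tested in each comparison. None of the 20 was called higher or lower in any of the 3 comparisons, beside 0.111% to 1.59% of all genes tested, by comparison and direction. With shares this low, few or no calls are likely among 20 genes. The medians were 0.02, 0.10 and -0.08 in the order DEN-CDHFD WT over young WT, miR-146a-/- over DEN-CDHFD WT and DKO over miR-146a-/-. Tlr7 stood at 148, 147, 163 and 138 CPM in young WT, DEN-CDHFD WT, miR-146a-/- and DKO. Tlr9 stood at 52.1, 71.6, 80.0 and 73.7 CPM, lowest in young WT. Irf7, the factor that drives interferon genes, stood at 540, 472, 380 and 335 CPM, lowest in DKO.

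The miR-146a targets Irak1 and Traf6 were examined in the pDC that lack the microRNA. Irak1 stood at 76.0, 76.4, 72.9 and 68.4 CPM, and Traf6, below the level needed for testing, at 31.0, 28.0, 26.0 and 23.8. Neither was higher in miR-146a-/- than in DEN-CDHFD WT pDC, and the intervals of their log2 ratios included 0. Of the 17 tested genes in the list of miR-146a targets and NF-kB, 2 (11.8%) were called lower in miR-146a-/- (Tnfaip3 and Cd83) and none higher. Among all genes tested, 1.59% were called lower and 0.43% higher. On the list 15 genes lay below 0, beside 1753 of all 3721 genes tested. The list's median was -0.36, beside 0.02 for all genes tested and -0.19 for the same genes in all other kept cells.

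Tnfaip3, the NF-kB inhibitor A20, stood at 90.8, 84.1, 34.7 and 51.1 CPM, lower in both libraries without miR-146a. In all other kept cells its log2 ratio of miR-146a-/- over DEN-CDHFD WT was -1.26, close to the -1.28 of pDC. Cd83, a marker of dendritic cell maturation, stood at 53.5, 51.3, 0.510 and 10.7 CPM, from 76, 53, 1 and 18 UMIs, and was detected in few cells (7.56%, 14.1%, 0.719% and 4.07%).

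Genes whose longest 3′ UTR holds the seed match AGTTCTC had the same median as the others in miR-146a-/- against DEN-CDHFD WT pDC. Of the 3663 tested genes with an annotated 3′ UTR, 487 held the match, with a median log2 ratio of 0.02 against 0.02 for those without it. Of the 487, 3 (0.616%) were called higher and 5 (1.03%) lower, beside 13 (0.409%) and 54 (1.70%) of the 3176 without the match. The higher ones, named after their values were seen, were Ccng1 (1.69), Fcgr2b (1.18) and Sntb1 (1.00), and the lower ones Cd83, Tent5c, Klf4, Clec12a and Rlim.

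Among the gene lists, which were chosen with earlier results of these data known, immediate early and stress genes gave the broadest difference. Of 23 tested genes of this list, 13 (56.5%) were called lower in miR-146a-/- than in DEN-CDHFD WT pDC and 1 (4.35%), Ddit4, higher. Among all genes tested, 1.59% were called lower and 0.43% higher. On the list 22 genes lay below 0, beside 1753 of all 3721 genes tested. The 13 were Fos, Fosb, Junb, Jund, Egr1, Ier2, Atf3, Dusp1, Zfp36, Klf2, Klf6, Nr4a1 and Hspa1a. The list's median log2 ratio was -1.13, beside 0.02 for all genes tested. Genes of this kind are transcribed within minutes of a stimulus, and they are also known to respond to tissue dissociation.

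Fos, a component of the AP-1 transcription factor, stood at 2322 CPM in young WT (2243 to 2403), 2186 in DEN-CDHFD WT (2097 to 2278), 571 in miR-146a-/- (538 to 605) and 802 in DKO pDC (760 to 846). Both WT libraries were high and both libraries without miR-146a low, and no WT interval overlapped that of a library without miR-146a. The log2 ratio of miR-146a-/- over DEN-CDHFD WT was -1.94 (-2.04 to -1.83). After each cell was thinned to 2000 UMIs, Fos was detected in 77.3%, 82.1%, 36.0% and 45.5% of pDC, and before thinning in 92.4%, 96.2%, 69.8% and 69.9%.

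Other AP-1 genes were also lower in both libraries without miR-146a than in both WT libraries. Fosb stood at 176 CPM in young WT, 166 in DEN-CDHFD WT and 32.1 in miR-146a-/- pDC, with 84 UMIs in DKO. Junb stood at 687, 723, 268 and 238 CPM and Jund at 2219, 1778, 681 and 828. Jun, its AP-1 partner, was already lower in DEN-CDHFD WT, at 2316, 1410, 800 and 938 CPM, and did not reach the 2-fold limit between miR-146a-/- and DEN-CDHFD WT (-0.82).

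Zfp36, which destabilizes the mRNAs of cytokines, stood at 1719, 1901, 778 and 763 CPM. Dusp1, a phosphatase that shuts off MAP kinases, stood at 144, 214, 34.7 and 79.7 CPM, so it was lowest in miR-146a-/- and called higher in DKO than in miR-146a-/- (log2 ratio 1.20), although 1 DKO cell held 47% of its UMIs there. Klf2, a regulator of lymphocyte trafficking, stood at 2041, 1771, 602 and 908 CPM, and Nr4a1, an orphan nuclear receptor, at 202, 190, 49.4 and 63.0. Each of these was lower in both libraries without miR-146a than in both WT libraries. Ddit4, an inhibitor of mTORC1, went the other way, at 27.4, 27.1, 59.1 and 67.2 CPM.

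**Figure D3:**
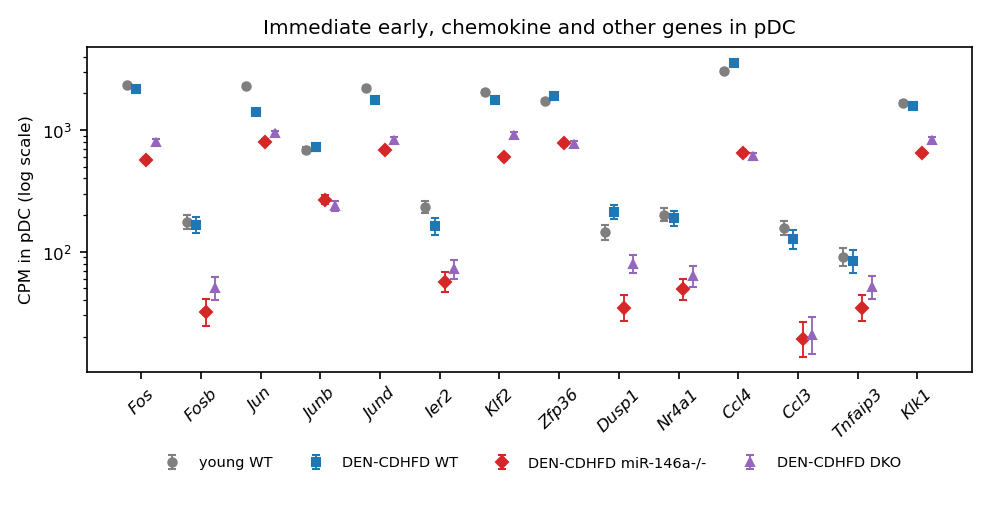
CPM (log scale) in pDC of 14 genes in the 4 libraries, with exact 95% Poisson intervals. For each of the 14 genes both libraries without miR-146a lie below both WT libraries, as for Fos (2322, 2186, 571 and 802 CPM in young WT, DEN-CDHFD WT, miR-146a-/- and DKO).

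All other kept cells showed lower values of these genes too. The list's median there was -0.84 between miR-146a-/- and DEN-CDHFD WT, and Fos stood at 1095, 1091, 363 and 532 CPM. Nr4a1 (-1.94 in pDC, -0.37 elsewhere) and Klf2 (-1.56 and -0.43) differed more in pDC than in the other cells, whereas Fos (-1.94 and -1.59) and Fosb (-2.37 and -2.20) were nearer. The handling of the livers is not recorded per library in the sources used here, and its part in these values was not tested.

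**Figure D4:**
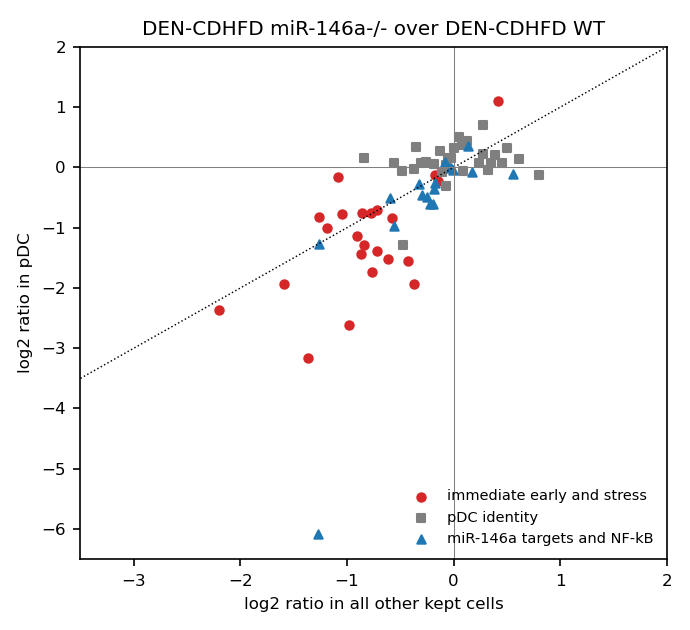
Log2 ratio of miR-146a-/- over DEN-CDHFD WT in pDC (vertical axis) against the same ratio in all other kept cells (horizontal axis) for the tested genes of 3 lists, with a dotted line of equal ratios. Immediate early and stress genes lie mostly below 0 on both axes (medians -1.13 and -0.84), pDC identity genes around 0 (0.09 and -0.01).

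Promoters of Fos and Dusp1 are shown because these genes were low together and because TGACG is the core of the site bound by CREB and ATF factors. On both strands (TGACG or CGTCA), 20.8% of all 32851 promoters held a match. Counted by gene instead, with any promoter of the gene, 11 of 21 immediate early and stress genes held a match (52.4%). Of the pDC identity genes, 3 of 22 did (13.6%). The Fos promoter at chr12:85473640-85473939 (plus strand) held 2 matches and the Dusp1 promoter at chr17:26508423-26508722 (minus strand) held 3, of which 2 overlap. Capitals mark the matches in both.
Fos: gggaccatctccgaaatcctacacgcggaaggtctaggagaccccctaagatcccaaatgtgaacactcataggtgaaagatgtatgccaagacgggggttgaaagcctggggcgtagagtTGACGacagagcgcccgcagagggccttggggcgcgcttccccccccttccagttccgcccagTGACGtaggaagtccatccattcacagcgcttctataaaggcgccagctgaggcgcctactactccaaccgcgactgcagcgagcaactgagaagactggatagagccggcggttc
Dusp1: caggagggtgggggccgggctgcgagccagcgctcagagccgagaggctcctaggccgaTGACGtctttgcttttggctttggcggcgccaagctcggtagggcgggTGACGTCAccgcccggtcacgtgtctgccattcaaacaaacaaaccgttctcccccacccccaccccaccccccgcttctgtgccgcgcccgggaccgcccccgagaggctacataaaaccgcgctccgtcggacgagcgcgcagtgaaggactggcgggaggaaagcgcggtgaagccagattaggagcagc

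Of 17 tested genes for chemokines and homing, 3 (17.6%) were called lower in miR-146a-/- than in DEN-CDHFD WT pDC (Ccl3, Ccl4 and Ccl5) and 1 (5.88%) higher (Ccr2), beside 1.59% and 0.43% of all genes tested, with 11 above 0 and a median of 0.11. The chemokine genes Ccl4 and Ccl3 lie close together at chr11:83662584-83664683 and chr11:83647844-83649355. Ccl4 stood at 3074 CPM in young WT (2984 to 3167), 3519 in DEN-CDHFD WT (3405 to 3635), 645 in miR-146a-/- (610 to 681) and 607 in DKO (570 to 645). It was thus high in both WT libraries and low in both without miR-146a, and the log2 ratio of miR-146a-/- over DEN-CDHFD WT was -2.45 (-2.54 to -2.36).

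NK cells, a main source of this chemokine, held 3919, 3060, 2496 and 1349 CPM of Ccl4, more than pDC in every library but DEN-CDHFD WT. Thinned to 2000 UMIs per cell, Ccl4 was detected in 60.5%, 73.1%, 25.9% and 25.2% of pDC, and before thinning in 79.0%, 87.2%, 45.3% and 52.8%. In B cells over all libraries the thinned share was 2.97% (5.87% before thinning), from median depths between 5686 and 7133 UMIs. In all other kept cells Ccl4 stood at 775, 1512, 979 and 590 CPM, where DEN-CDHFD WT was highest and DKO lowest. By cell type, both libraries without miR-146a lay below both WT libraries in NK cells as well. The same split was seen in cDC2 (520, 419, 202 and 72.2 CPM) and B cells (72.0, 88.5, 46.8 and 24.9). It was not seen in cDC1 (49.1, 189, 73.0 and 43.0 CPM).

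Ccl3 stood at 156, 127, 19.4 and 20.8 CPM in pDC, with the same split of the libraries. Within a library, cells with more Fos had more Ccl4, with Spearman correlations across cells of 0.474 in young WT (119 cells), 0.403 in DEN-CDHFD WT (78), 0.479 in miR-146a-/- (139) and 0.554 in DKO (123). The cells of a library share their preparation, and these values are descriptions.

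Ccl5 is the gene deleted in DKO mice. pDC held little of it, at 236, 66.7, 13.3 and 17.8 CPM (336, 69, 26 and 30 UMIs), and the top cell held 34% and 38% of the UMIs in the WT libraries. In all other kept cells it stood at 6276, 12699, 12812 and 66.2 CPM, so the low DKO level fits the label there, while in pDC the level was as low in miR-146a-/- as in DKO. Ccr2, the receptor for monocyte chemoattractants, stood at 120, 80.3, 197 and 204 CPM in pDC, higher in both libraries without miR-146a. Among receptors that pDC use to reach tissues, Ccr9 stood at 935, 692, 678 and 725 CPM and Cxcr3 at 106, 94.8, 101 and 101, with none called.

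Interferons were nearly absent. Of 24 genes for type I and III interferon and related cytokines, none reached the level for testing, and Ifna2 and Ifnz had 1 UMI each over all 459 cells. Ifnb1 and Il6 had 0 UMIs in every library. Tnf stood at 35.2, 27.1, 9.17 and 8.33 CPM (50, 28, 18 and 14 UMIs). Il12b had 15 UMIs, all from 1 young WT cell.

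Interferon-stimulated genes were measured in 19 tested genes between miR-146a-/- and DEN-CDHFD WT, where 1 was called higher (Iigp1) and 1 lower (Ifitm3), 5.26% each beside 0.43% and 1.59% of all genes tested, with a median of 0.06. Ifitm3 stood at 144, 294, 114 and 105 CPM, and Lyz2 and the Kupffer and macrophage genes were likewise highest in DEN-CDHFD WT. With pDC limited to at most 1 UMI each of Lyz2, the C1q genes together, Nkg7 and Ms4a1, the log2 ratio of Ifitm3 went from -1.36 to -0.52. The part of such transcripts was not tested further. Between DKO and miR-146a-/-, 1 of 19 (5.26%) was called lower (Slfn5) and none higher, beside 0.111% and 0.25% of all genes tested. Slfn5 lies near the deleted Ccl5 on chromosome 11, and the part of this position in its value was not tested. Below 0 lay 17 of the 19, beside 1997 of all 3598 genes tested (medians -0.11 and -0.02). In all other kept cells the median of the same genes was -0.13. Ly6a (Sca-1) stood at 1265, 1774, 2010 and 1948 CPM, lowest in young WT. Iigp1, an immunity-related GTPase, stood at 21.1, 21.3, 52.5 and 33.9 CPM, highest in miR-146a-/-.

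Surface receptors split by gene. Of 26 tested, Cd8a was called higher and Clec12a lower in miR-146a-/- than in DEN-CDHFD WT pDC. These calls were 3.85% of the list in each direction, beside 0.43% higher and 1.59% lower of all genes tested. The list's median was 0.07, beside 0.02 for all genes tested. Cd8a, carried by a subset of mouse pDC, stood at 134, 93.8, 251 and 275 CPM, higher in both libraries without miR-146a. Cd8b1 stood at 336, 313, 410 and 544 CPM. In B cells, which should lack Cd8a, it stood at 1.46 CPM.

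Clec12a, an inhibitory C-type lectin, stood at 358 CPM in young WT (328 to 391), 326 in DEN-CDHFD WT (292 to 363), 128 in miR-146a-/- (113 to 145) and 297 in DKO (272 to 325). It was low in miR-146a-/- pDC only, with a log2 ratio of -1.34 (-1.58 to -1.10) against DEN-CDHFD WT, and of 1.21 (0.99 to 1.44) for DKO against miR-146a-/-. The other kept cells held less, as Clec12a stood at 26.2, 45.4, 14.3 and 65.6 CPM there, also lowest in miR-146a-/-.

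For antigen presentation, none of 20 tested genes was called in any comparison, beside 0.111% to 1.59% of all genes tested, by comparison and direction. Above 0 lay 17 in DEN-CDHFD WT over young WT, 14 in miR-146a-/- over DEN-CDHFD WT and 11 in DKO over miR-146a-/- (medians 0.08, 0.09 and 0.02). Of all genes tested, 1918 of 3687, 1968 of 3721 and 1601 of 3598 lay above 0 in the same order. H2-Aa, an MHC class II chain, stood at 2913, 3143, 3679 and 3959 CPM and Cd74 at 11110, 11270, 13026 and 14572, so that Cd74 was near equal in the WT libraries. H2-DMb2, a subunit of the H2-M peptide editor, stood at 52.1, 87.0, 131 and 149 CPM. It was lower in young WT than in the 3 other libraries.

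For survival and death, 7 genes could be tested and 1, Bcl2l11, was called lower in miR-146a-/- than in DEN-CDHFD WT (14.3%, beside 1.59% of all genes tested). Bcl2l11, which encodes the pro-apoptotic protein Bim, stood at 39.4, 51.3, 4.59 and 14.3 CPM (56, 53, 9 and 24 UMIs), lower in both libraries without miR-146a. Mcl1, an anti-apoptotic relative, stood at 400, 405, 260 and 238 CPM. Of the secretory and ER genes, which support the large output of pDC, none of 20 was called in any comparison. Among all genes tested, 0.111% to 1.59% were called, by comparison and direction. Xbp1 stood at 517, 488, 418 and 441 CPM.

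Of 21 tested glycolysis and lipid genes, none was called higher in miR-146a-/- than in DEN-CDHFD WT pDC and 1 (Apoe) was called lower (4.76%, beside 1.59% of all genes tested). Above 0 lay 17 of the 21, beside 1968 of all 3721 genes tested, and the median was 0.23. Apoe, at 101, 104, 40.3 and 32.1 CPM, was also the most abundant of the 12 Kupffer and macrophage genes in the first 3 libraries, and their sum was lower in miR-146a-/- (54.5 CPM) than in DEN-CDHFD WT (134). Its source was not tested. Between DKO and miR-146a-/-, 18 of 20 lay below 0, with a median of -0.27 beside -0.02 for all genes tested. Gapdh stood at 613, 644, 904 and 720 CPM and Eno1 at 167, 202, 295 and 249, both highest in miR-146a-/-. In all other kept cells the medians of the list were 0.11 and -0.07.

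At the minimum of 50 CPM, fewer genes were higher (16) than lower (59) in miR-146a-/- against DEN-CDHFD WT pDC. With a minimum of 10 CPM, 204 were higher and 140 lower. The added minimum of 20 UMIs is reached at a lower CPM in miR-146a-/- pDC (1962147 UMIs) than in DEN-CDHFD WT pDC (1033909). Near 10 CPM the rule thus admits genes high in miR-146a-/- more readily. The counts at 10 CPM therefore do not show which direction was more frequent. The 8 largest higher values by log2 ratio were of Ccng1, Ide, Cd8a, Serpinh1, Acvr2a, Ccr2, Iigp1 and Olfr164. Ccng1, which encodes cyclin G1, stood at 70.4 CPM in young WT (57.3 to 85.6), 56.1 in DEN-CDHFD WT (42.6 to 72.5), 182 in miR-146a-/- (164 to 202) and 171 in DKO (152 to 192). Both libraries without miR-146a were high, with a log2 ratio of 1.69 (1.29 to 2.12), whereas in all other kept cells Ccng1 was level at 78.3, 92.6, 95.4 and 90.4 CPM.

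Ccng1 lies at chr11:40748552-40755311, on the chromosome of miR-146a-5p (chr11:43374435-43374456), and the part of this position in its level was not tested. Its longest 3′ UTR is shown at its seed match because Ccng1 led this comparison. Of 3663 tested genes with an annotated 3′ UTR, 487 held the match, with a median log2 ratio of 0.02, as in those without it. A match describes the letters only. The capitals mark AGTTCTC (GENCODE M21, GRCm38).
Ccng1, chr11:40749916-40749945, minus strand: aacgaagaactcccaAGTTCTCtcacatat

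Ide, the insulin-degrading enzyme, stood at 32.4, 27.1, 76.4 and 73.1 CPM. Serpinh1, a collagen chaperone, stood at 48.6, 31.9, 85.6 and 83.8 CPM, and the activin receptor Acvr2a at 16.2, 24.2, 60.6 and 43.4. Olfr164, an olfactory receptor gene, stood at 141, 106, 253 and 216 CPM in pDC, 98.5-fold over other kept cells in all. Each of these 4 genes was higher in both libraries without miR-146a than in both WT libraries.

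The 8 largest differences in the other direction were Cd83, Bcl2l11, Atf3, Ccl3, Dusp1, Tent5c, Ccl4 and Grasp. Grasp, a scaffold protein, stood at 165, 209, 38.7 and 51.7 CPM, and Tent5c, a poly(A) polymerase, at 74.6, 50.3, 8.15 and 13.7. Klk1, the kallikrein that marks pDC, stood at 1672 CPM in young WT (1605 to 1740), 1563 in DEN-CDHFD WT (1488 to 1641), 643 in miR-146a-/- (608 to 680) and 831 in DKO (788 to 875). Klk1 was thus the identity gene with the largest difference, with a log2 ratio of -1.28 (-1.39 to -1.17).

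Read across all 4 libraries, 29 of 3884 genes (0.747%) were at most 1/2 as high in both libraries without miR-146a as in both WT libraries, and 3 (0.0772%) at least 2-fold higher, namely Ccng1, Ddit4 and Ide. Of the 29, 9 were in the immediate early and stress list, of which 23 genes were tested, and 7 met the same limit in all other kept cells. Of the 29 genes, 23 had an annotated promoter, and 12 of these held TGACG or CGTCA (52.2%, beside 20.8% of all promoters). The genes were counted by gene and the whole by promoter, so these shares are unlike measures. The 29 were chosen by their values in these data and overlap the immediate early and stress list. Their share is therefore not independent of the share given above for that list.

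**Figure D5:**
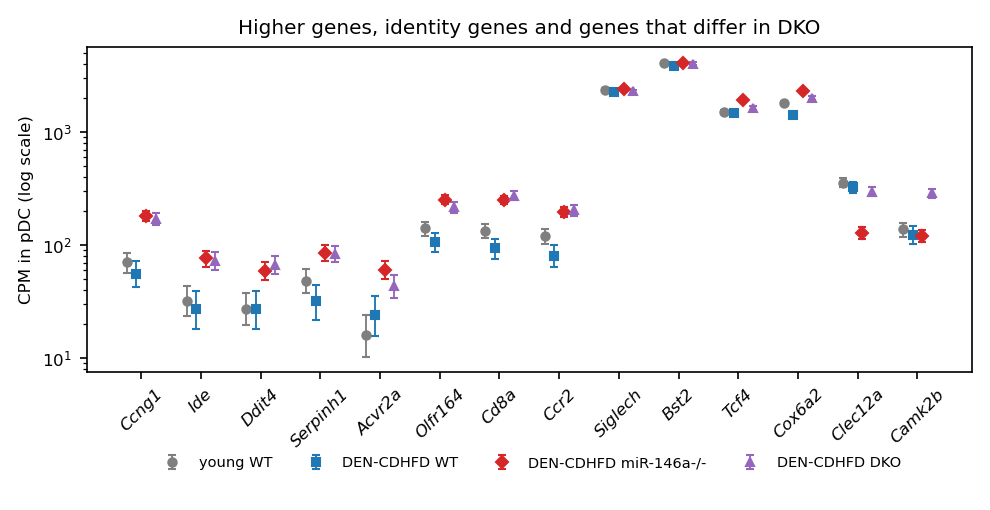
CPM (log scale) in pDC of 14 genes in the 4 libraries, with exact 95% Poisson intervals. Ccng1 was higher in the libraries without miR-146a (182 and 171 CPM) than in WT (70.4 and 56.1), Bst2 was level, Clec12a was low in miR-146a-/- only (128 CPM) and Camk2b high in DKO only (290 CPM).

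Between DKO and miR-146a-/- pDC, the question was what the added loss of Ccl5 changes, and few genes differed, with 9 of 3598 (0.25%) called higher and 4 (0.111%) lower. The 8 largest higher values were of Gm42031, Gm4316, Gm47283, S100a4, Camk2b, Clec12a, Dusp1 and Cd209d. The long noncoding RNA Gm42031 stood at 139, 112, 141 and 587 CPM in pDC, high in DKO only, and at a log2 ratio of 2.15 in all other kept cells beside 2.06 in pDC. Camk2b, a subunit of the calcium/calmodulin-dependent kinase II, stood at 138, 124, 121 and 290 CPM, with 1.51 elsewhere beside 1.26 in pDC. Gm47283 had 71 UMIs in young WT and stood at 67.7, 22.9 and 87.4 CPM in the DEN-CDHFD WT, miR-146a-/- and DKO libraries, and its ratio in other cells was 1.91 beside 1.92. The annotation places Gm47283 on chromosome Y, while the labels call all mice female, and the sex of the libraries was not checked. These 3 genes therefore differed by a like amount in pDC and in the rest of the CD45+ cells.

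Cd209d, a lectin of the DC-SIGN family, stood at 158, 89.9, 87.1 and 178 CPM in pDC, lower in the middle 2 libraries, with a log2 ratio of 1.03 for DKO over miR-146a-/-. It was the 1 gene of 30 on the identity list called higher there (3.33%), and none was called lower, beside 0.25% and 0.111% of all genes tested. The 30 include Siglech, which chose the cells. Lag3, a checkpoint receptor that pDC carry, stood at 212, 221, 268 and 352 CPM, highest in DKO without reaching 2-fold. Outside pDC Lag3 went the other way, with a log2 ratio of -1.35.

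The 8 largest lower values in DKO were of Lyz2, Slfn5, Hspa1a, Dhx40, Stmn1, Plbd1, Myh13 and Add1, of which Lyz2, Slfn5, Hspa1a and Dhx40 were called. Slfn5, an interferon-inducible Schlafen gene, stood at 41.5, 60.0, 57.6 and 25.6 CPM. It lies at chr11:82951349-82964840, near the deleted Ccl5 at chr11:83525778-83530518, and the part of this position in its value was not tested. Dhx40, an RNA helicase, stood at 61.2, 58.0, 64.7 and 30.9 CPM, with -1.33 in all other kept cells beside -1.06 in pDC. The Lyz2 difference rested on few cells and reversed under the alternatives given above.

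Between DEN-CDHFD WT and young WT pDC, 14 of 3687 genes (0.38%) were called higher and 11 (0.298%) lower. The 8 largest higher values were of Hist1h2ae, Stmn1, Ccl6, Ifitm2, Lgals3, S100a4, Cdc14a and Fcgrt. A single DEN-CDHFD WT cell held 87% of the Hist1h2ae and 86% of the Stmn1 UMIs, and the same holds for cell cycle genes at large, of which Stmn1 and Pclaf were called higher among 6 tested. Cells with at least 5 UMIs over 9 cycle genes numbered 0, 1, 2 and 1 in young WT, DEN-CDHFD WT, miR-146a-/- and DKO pDC, and in DEN-CDHFD WT 1 cell held 139 of 154 such UMIs. At least 5 such UMIs were found in 3.97% to 7.87% of the other kept cells.

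Genes of myeloid cells were among them. Lgals3 (galectin-3) stood at 73.9, 192, 100 and 142 CPM, S100a4 at 35.2, 84.1, 17.3 and 54.1, and the chemokine Ccl6 at 21.1, 72.5, 20.9 and 8.33. When pDC were limited to at most 1 UMI each of Lyz2, the C1q genes together, Nkg7 and Ms4a1, the log2 ratio of DEN-CDHFD WT over young WT went from 1.77 to -0.12 for Ccl6, from 1.25 to -0.91 for S100a4 and from 1.03 to -0.07 for Ifitm3. Fcgrt, the neonatal Fc receptor, stood at 25.3, 54.2, 57.1 and 55.9 CPM and was higher in all 3 DEN-CDHFD libraries than in young WT.

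The 8 largest lower values in DEN-CDHFD WT were of Nkg7, Ccl5, A430035B10Rik, AW112010, Polr2l, Aig1, Siglecg and Rubcn. Nkg7, a granule protein of NK and T cells, had 75, 6, 5 and 17 UMIs in young WT, DEN-CDHFD WT, miR-146a-/- and DKO pDC, and Gzma had 122, 4, 4 and 6, of which 1 cell held 53% in young WT. Without the exclusion on Cd3 and Cd79a the log2 ratio turned to 1.01 for Nkg7, 1.44 for Ccl5 and 0.56 for AW112010. Siglecg, a Siglec of B cells, stood at 64.7, 30.0, 56.6 and 50.5 CPM, lowest in DEN-CDHFD WT. None of the 30 identity genes, which include Siglech, the gene that chose the cells, was called in this comparison. Below 0 lay 23 of the 30, beside 1769 of all 3687 genes tested, with medians of -0.07 and 0.01. The list medians furthest from 0 were those of cell cycle (0.66), survival and death (0.20) and chemokines and homing (-0.16, with 13 of 17 below 0).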

How the data were processed

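The libraries were CD45+ liver cells sequenced with the 10x Genomics 5′ kit, 1 library per group. The authors ran Cell Ranger on the mouse genome mm10 (GRCm38), and the deposited matrices hold each gene's unnormalized count of UMIs in every cell. Their headers name version 7.0.1, whereas the study's methods name an earlier version, and which was used was not settled here. Groups were taken from the sample labels. Members, gene lists and alternatives were chosen with earlier results of these data known.

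Cells with 600 to 6000 genes and at most 5% mitochondrial UMIs were kept, and pDC were gated as described. No doublet caller was run; doublets were limited by the upper limit on genes and by the exclusion on Cd3 and Cd79a. Counts were summed over the pDC of a library and divided by their total (CPM), with a prior of 0.5 counts for log2 ratios. Intervals were Clopper-Pearson, exact Poisson, Newcombe and, for ratios, exact conditional binomial, all at 95%. No test was possible with 1 library per group. For shares of cells with a UMI, cells were thinned to 2000 UMIs, which left out no pDC. Python 3.11.15 with numpy 2.4.6, pandas 2.3.3, scipy 1.17.1 and matplotlib 3.10.9 was used, and edgeR 4.0.16 in R 4.3.3 for TMM factors.

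Genes named were those of 14 gene lists, the 20 genes of largest fold of pDC over other kept cells, and, per comparison, the 8 largest higher and lower log2 ratios among tested genes with a UMI in at least 10 cells of the higher library, leaving out mitochondrial, ribosomal protein and receptor segment genes. Cell type markers and Ccl5 were named as well. Some genes of the lists are withheld and are not reported here.

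Alternatives were Siglech of at least 2 or 5 UMIs, no exclusion, added Bst2 and Tcf4, a gate without Siglech, at most 1 UMI of other cells' genes, 10% mitochondrial UMIs, 200 genes, no upper limit, thinning together with Siglech of at least 1 UMI, another denominator, TMM, the mean over cells, a prior of 5, and minimums of 10 or 200 CPM. A further 3 were chosen after seeing the data, namely allowing 1 UMI of Cd3 and of Cd79a, leaving out the top cell of each gene, and subtracting the log2 ratio of all other kept cells.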

Additional observations from a re-analysis of the deposited data

Results flagged for a closer look

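Cells that carried Siglech but were left out were set aside because they are data of the same kind that the comparisons did not use. There were 19 cells with at least 3 Siglech UMIs outside the limits on genes or mitochondrial share, 2, 5, 4 and 8 in young WT, DEN-CDHFD WT, miR-146a-/- and DKO. Their median depth was 4201 UMIs, and 15 held Bst2, 18 Tcf4 and 4 Cox6a2.

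Within the limits, 127 cells had at least 3 Siglech UMIs and a UMI of Cd3 or Cd79a, 53, 30, 16 and 28 in the same order. Of these, 126 held Bst2, 123 Tcf4 and 120 Cox6a2, and their median Siglech was 31 UMIs, the same as in pDC. Exactly 1 Cd3 UMI was found in 47 of them (25, 8, 5 and 9) and 10 or more in 49 (16, 14, 7 and 12). The 127 cells were 30.8%, 27.8%, 10.3% and 18.5% of the kept cells with at least 3 Siglech UMIs. Among cells with at least 3 Cd79a UMIs and no Siglech UMI, 21.5%, 23.8%, 18.4% and 13.3% held a Cd3 UMI. With 1 library per group, these differences were not tested.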

How the results depend on the processing

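Of 1218 gene log2 ratios under alternatives, 1064 kept their size, 143 moved and 11 reversed. Shares moved in 9 of 48, share differences in 3 of 36 and counts of genes in 29 of 102. No paired analysis was possible because each group had 1 library. With 1 library per group, differences between mice, livers and runs cannot be told from differences between groups.

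Reversed log2 ratios, DEN-CDHFD WT over young WT: with at most 1 UMI each of Lyz2, C1q, Nkg7 and Ms4a1, Ccl6 -0.12, S100a4 -0.91, Ifitm3 -0.07 and Atf3 -1.59; with no exclusion, Nkg7 1.01, Ccl5 1.44 and AW112010 0.56; with no upper limit on genes, AW112010 0.07; with Siglech of at least 2 UMIs, Atf3 -0.18. Lyz2, DKO over miR-146a-/-: 1.12 with Siglech of at least 2 UMIs and 0.74 with at most 1 UMI of the other cells' genes.

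Shares (young WT, DEN-CDHFD WT, DKO) were 1.67%, 1.30% and 1.53% with no exclusion. Young WT was 1.43% with 1 Cd3 or Cd79a UMI allowed and 1.50% when cells were thinned and Siglech lowered to at least 1 UMI, both at once. Among cells with no Cd3 UMI shares were 3.49%, 2.66%, 4.79% and 2.55%, with differences of -0.835, 2.13 and -2.24 points.

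Genes higher in DEN-CDHFD WT than young WT (14) became 26 with Siglech of at least 2, 31 with no exclusion, 52 without Siglech in the gate, 22 with no upper limit, 9 by the mean over cells, 89 from 10 CPM, 3 from 200 CPM, 6 without the top cell and 22 minus other cells. Lower genes (11) became 19 by the mean, 130 from 10 CPM, 3 from 200 CPM and 67 minus other cells. Between miR-146a-/- and DEN-CDHFD WT, higher genes (16) became 10 with a prior of 5, 204 from 10 CPM, 2 from 200 CPM and 29 minus other cells, and lower genes (59) became 94 with no exclusion, 140 from 10 CPM and 19 from 200 CPM. Between DKO and miR-146a-/-, higher genes (9) became 17 with no exclusion, 14 with no upper limit, 66 from 10 CPM and 4 from 200 CPM, and lower genes (4) became 11 with Siglech of at least 2, 2 with no upper limit, 100 from 10 CPM, 0 from 200 CPM and 7 minus other cells.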

Other observations

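Il7r, the receptor of interleukin 7, led the 9 progenitor genes in every library, which summed to 585, 536, 717 and 687 CPM in young WT, DEN-CDHFD WT, miR-146a-/- and DKO pDC. Neutrophil genes summed to 2.81, 49.3, 10.7 and 9.51 CPM. The Klk1 relative Klk1b27 stood at 195, 137, 53.0 and 47.0 CPM.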
